A study of Mus musculus with 6 samples.

Results

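The genes described here are a set of proinflammatory cytokines together with Ptgs2: Tnf, Il1b, Il18, Il6, Il23a, Osm, Csf1 and Ptgs2 (human-style symbols TNF, IL1B, IL18, IL6, IL23A, OSM, CSF1 and PTGS2). They were chosen by name, as every probe whose platform symbol is among these 8, which gave 8 of the 17742 named genes measured, with 1 probe for each among the 26423 on the array. The cells were BV2, an established microglial line from mouse. Microglia are the macrophages that live in the brain. RNA was taken 1 h after adenine, a purine base that cells can salvage into nucleotides, had been added to the medium. There were 3 groups of 2 arrays: untreated control cells, cells given a lower dose of adenine and cells given a higher dose. Titles and treatment protocol give the doses as 20 and 80 µM, the sample characteristics as 80 and 250 µM, so only their order is used. All groups are the same cell line in the same medium, and no group was given an inflammatory stimulus according to the labels. The series' design text speaks of 2 separate control cultures and of separate treated cultures. It does not say how many treated cultures there were, so the spread between the 2 treated arrays of a dose may be technical.

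Microglia sense damage and microbes through pattern receptors, which act through NF-κB and related factors to switch on a small set of fast genes. Among their products are TNF and IL-6, which act on neighbouring cells, and the IL-1 family members IL-1β and IL-18, which are made as inactive precursors and cut by caspase-1. Ptgs2 encodes the inducible cyclooxygenase, the first committed step from arachidonic acid to prostaglandins. Many of these messages are unstable, and RNA-binding proteins that hasten or delay their decay help set their level.

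To show the regulatory sequence behind the members that stood apart, the 250 bases before the annotated RefSeq start are printed for 4 of them: Il18 and Il1b, which passed a test, Ptgs2, the member with the largest negative difference, and Il6, whose treated arrays all read above the controls. The RefSeq promoter table (GRCm38.p6) matched 6 of the 8 genes, with Il23a and Osm unmatched. Each sequence runs 5′ to 3′ on the gene's strand and ends at the base before the start. Capitals mark matches, on either strand, to 5 motifs: the NF-κB consensus, the AP-1 motif TGANTCA, the CRE core TGACG, the C/EBP motif TTNNGNAA and the TATA box TATAAA.
Il18, chr9:50554450-50554699, plus strand: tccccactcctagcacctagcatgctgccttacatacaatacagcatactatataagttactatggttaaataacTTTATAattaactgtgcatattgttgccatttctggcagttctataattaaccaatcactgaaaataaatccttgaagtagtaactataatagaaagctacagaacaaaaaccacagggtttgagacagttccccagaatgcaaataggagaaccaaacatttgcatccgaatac
Il1b, chr2:129371140-129371389, minus strand: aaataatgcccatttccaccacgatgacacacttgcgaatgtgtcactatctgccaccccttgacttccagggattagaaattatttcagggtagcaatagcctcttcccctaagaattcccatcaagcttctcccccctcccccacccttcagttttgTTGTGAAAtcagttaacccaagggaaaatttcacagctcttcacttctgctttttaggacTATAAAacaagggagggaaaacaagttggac
Il6, chr5:30012864-30013113, plus strand: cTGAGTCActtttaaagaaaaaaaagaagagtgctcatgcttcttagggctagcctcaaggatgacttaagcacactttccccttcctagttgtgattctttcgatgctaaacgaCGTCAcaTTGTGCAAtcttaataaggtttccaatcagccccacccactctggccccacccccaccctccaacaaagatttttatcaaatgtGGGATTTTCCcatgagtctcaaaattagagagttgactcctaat
Ptgs2, chr1:150099781-150100030, plus strand: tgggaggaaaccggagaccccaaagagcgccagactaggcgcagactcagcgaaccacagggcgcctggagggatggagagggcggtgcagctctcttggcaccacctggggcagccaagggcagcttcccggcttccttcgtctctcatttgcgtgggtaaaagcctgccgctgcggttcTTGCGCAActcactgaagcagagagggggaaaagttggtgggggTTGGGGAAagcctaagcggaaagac

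In the table's windows of 300 bases, which reach 50 bases past the start, the NF-κB consensus matched 2 of the 6 promoters, those of Il6 (44 to 35 bases before the start) and Csf1 (154 to 145 bases before). Of all 32851 promoters in the table, 8.46% hold it. The AP-1 motif matched Il6 alone (7.81% of all promoters), and the CRE core matched Il6 and, 14 to 18 bases past its start, Ptgs2 (20.8% of all). The C/EBP motif matched Tnf, Il1b, Il6 and Ptgs2 (40.7% of all). A TATA box lay 31 to 26 bases before the start of Il1b and 29 to 24 bases before that of Tnf. In Il18 the same letters were found only on the opposite strand, 175 to 170 bases before the start (13.6% of all promoters hold the motif on either strand). In the Il6 sequence the CRE core and the C/EBP match do not overlap. A match is a stretch of letters and not a measured binding site. None of the 5 motifs was found in both Il18 and Ptgs2. The only letters shared by Il18 and Il1b were TATAAA, on opposite strands and at different distances from the start.

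The microglial label was checked against markers. Of 12 listed microglia and macrophage markers, 10 were measured and 9 of those had a mean signal above the median probe of the array. So did 3 of 4 oligodendrocyte and 3 of 5 endothelial markers, so this measure alone does not mark a cell type. In the controls the microglial list summed to 74990 to 77410 normalized units and the oligodendrocyte list to 1735 to 2153. The arrays are single-colour, with intensity medians as deposited between 125 and 170 units, and were brought to a common distribution by quantile normalization, so values below are normalized intensity unless called deposited. The higher-dose arrays stood apart from the rest: over probes above the median their log2 values had a Pearson r of 0.9894 between them, and of 0.9287 to 0.9406 with arrays of the remaining groups. Precision is limited by having only 2 arrays in a group, and an exact permutation test of 2 against 2 cannot give a p below 0.333. Tests are therefore from limma fitted to all 26423 probes, with Benjamini-Hochberg adjustment and a threshold of 0.05.

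At the higher dose, Il18 rose and Il1b ended above its lower-dose level, while Ptgs2 read lower without passing the test. Against control, limma called 1 of the 8 members higher (Il18) and 0 lower, beside 10.6% of all probes, 5.55% higher and 5.06% lower. Of the members, 7 lie above the median probe, and among such probes 17% were called, so 1 of 8 is close to the background. The median log2 change was 0.25 over the 8 genes and −0.01 over all probes. At an unadjusted p of 0.05, 4 members differed, where 29.1% of all probes did. Arrays of the higher dose and control did not overlap for 7 members, 4 higher and 3 lower, where 60.1% of all probes did not (28.8% higher and 31.3% lower).

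At the lower dose, limma called 0 members, beside 0.0114% of all probes (0.00757% higher, 0.00378% lower, and 0.00757% of those above the median). At an unadjusted p of 0.05 it was 1 member, Il6, beside 6.36% of probes. The arrays did not overlap for 4 members, 2 higher and 2 lower, where 35% of all probes did not (18.5% higher and 16.6% lower). The median log2 change was 0.07 for the members and 0 for all probes.

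Between the doses, 2 members were higher at the higher dose (Il18 and Il1b) and 0 lower. Of all probes 13.7% were called, 6.78% higher and 6.95% lower, and 21.9% of those above the median. At an unadjusted p of 0.05 it was 3 members, beside 32.1% of probes. The arrays did not overlap for 7 members, 4 higher and 3 lower, where 59.2% of all probes did not (28.5% higher and 30.7% lower). On values as deposited, with no normalization, the split over all probes moved from 1792 higher and 1837 lower to 1127 and 2965. Both comparisons of the higher dose share its 2 arrays, and both comparisons with control share the control arrays.

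**Figure D1:**
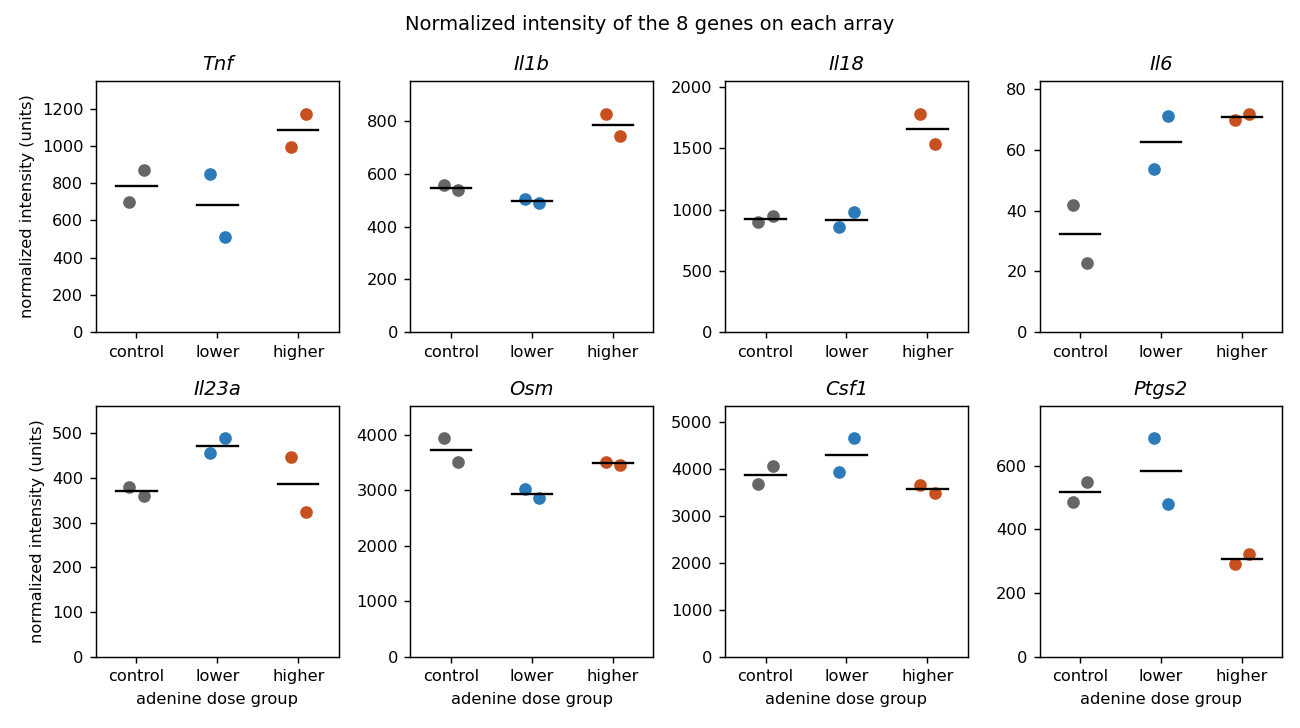
Normalized intensity (units, linear axis from 0) of the 8 genes on each array, by adenine dose group, with 1 point per array and a line at the mean of the 2. Il18 and Il1b read above all 4 other arrays at the higher dose, Ptgs2 reads below them, and for Il6 all 4 treated arrays read above both controls.

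Among the IL-1 family members, Il18 encodes the precursor of a cytokine that drives interferon-γ release from lymphocytes. Its probe read 898 and 950.5 units in the controls, 855.7 and 983.7 at the lower dose and 1783 and 1538 at the higher dose. The higher-dose arrays lay above all 4 others, while the lower-dose arrays bracketed the controls. The mean rose from 924 ± 37.1 to 1660 ± 173 units (SD, n = 2), 1.79-fold (log2 change 0.84 ± 0.17, SE, limma adjusted p = 0.0418). Against the lower dose (920 ± 90.5 units, SD, n = 2) the difference was 1.80-fold (0.85 ± 0.17, adjusted p = 0.0361). At the lower dose against control it was −0.01 with a 95% interval of −0.44 to 0.42, so the data allow a change of either sign of about that size. The call against control was lost in each of the 6 fits that left out 1 array (log2 change 0.74 to 0.95, adjusted p 0.0604 to 0.195), and on values as deposited, with no normalization between arrays (0.74, adjusted p = 0.0997). Each of those fits leaves a group with 1 array, which is assumed to vary like the other groups, and calls fewer probes of any kind. The call against the lower dose was lost in the same 6 fits (0.75 to 0.96, adjusted p 0.0732 to 0.168) and as deposited (0.58, adjusted p = 0.132), where the median of all probes stood at −0.25.

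Il1b, which encodes the precursor of IL-1β, a central mediator of fever and of microglial activation, showed a similar order of arrays. Its probe read 558.8 and 538.3 units in the controls, 506.3 and 489.7 at the lower dose and 828.2 and 744.3 at the higher dose. All 3 groups were apart on the normalized scale, with the lower dose at the bottom and the higher dose on top. As deposited, the lower-dose arrays read 529 and 566 units and overlapped the controls at 516 and 543. The means were 549 ± 14.4, 498 ± 11.8 and 786 ± 59.3 units (SD, n = 2). The higher dose exceeded the lower 1.58-fold (0.66 ± 0.15, adjusted p = 0.0477). Against control the difference was 1.43-fold (0.52 ± 0.15, 95% interval 0.14 to 0.89) and did not pass (adjusted p = 0.0894). It passed in 2 of 16 alternative settings, with an adjusted p down to 0.0227. For the lower dose against control it was −0.14 ± 0.15 (adjusted p = 0.851), and 0.05 on values as deposited, where the median of all probes stood at 0.22. The call between the doses was lost without any 1 of the 6 arrays (0.58 to 0.73, adjusted p 0.0889 to 0.206), and also as deposited (0.39, adjusted p = 0.201), with equal medians (0.57, adjusted p = 0.0604), with array weights (adjusted p = 0.0534) and with the gene span trend subtracted (0.52, adjusted p = 0.0678).

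Tnf encodes the cytokine that acts on the TNF receptors to promote inflammation and cell death. Its probe read 700.2 and 872.7 units in the controls, 852.2 and 508.8 at the lower dose and 997 and 1173 at the higher dose. The higher-dose arrays were again the highest, but the lower-dose arrays differed from each other by more than the control mean differed from either dose mean. Tnf had a residual spread between arrays of a group of 0.34 on the log2 scale, larger than that of 73.2% of probes, whereas Il1b at 0.07 was steadier than all but 4.08%. The log2 change at the higher dose was 0.47 ± 0.30 (95% interval −0.28 to 1.22, adjusted p = 0.364), and at the lower dose −0.25 ± 0.30 (−1.0 to 0.5, adjusted p = 0.867). Between the doses it was 0.72 ± 0.30 (−0.04 to 1.47, adjusted p = 0.172), and it passed in 1 of 16 alternative settings (adjusted p = 0.0273). It became 1.09 without lower dose replicate 1 or 0.34 without lower dose replicate 2.

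Among the cytokines that signal through the gp130 family of receptors, Il6 gave the dimmest signal of the members and Osm a steady one. Il6, a fever and acute-phase cytokine, was the only member whose mean signal lay below the median probe. Its probe read 41.83 and 22.83 units in the controls, 53.83 and 71.00 at the lower dose and 69.67 and 71.83 at the higher dose. Every treated array read above both controls, and the doses overlapped. Between 17.6% and 36.6% of probes on an array read lower than it did. The means were 32.3 ± 13.4, 62.4 ± 12.1 and 70.8 ± 1.53 units (SD, n = 2). The log2 change was 1.00 ± 0.33 at the lower dose (95% interval 0.16 to 1.84, adjusted p = 0.764) and 1.19 ± 0.33 at the higher dose (0.36 to 2.03, adjusted p = 0.082), neither past the threshold. The higher-dose estimate was called with log2(value + 16), at 0.87 (adjusted p = 0.0312), and with a trended prior (adjusted p = 0.047). Without control replicate 1 it was 1.63, and without control replicate 2 it was 0.76.

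Osm encodes oncostatin M, a relative of IL-6 made by activated myeloid cells. Its values were 3934 and 3516 units in the controls, 3018 and 2865 at the lower dose and 3511 and 3454 at the higher dose. The lower-dose arrays were the lowest, and the higher-dose arrays lay just under the lower of the controls. The log2 change was −0.34 ± 0.15 at the lower dose (95% interval −0.72 to 0.04, adjusted p = 0.764) and −0.09 ± 0.15 at the higher dose (−0.47 to 0.29, adjusted p = 0.723). Neither difference passed, and the interval at the higher dose excludes a log2 change of 1 in either direction.

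Il23a encodes the p19 subunit of IL-23, which supports T cells that make IL-17. Its probe read 380.8 and 360.5 units in the controls, 455.7 and 488.8 at the lower dose and 447.5 and 325.2 at the higher dose. The lower-dose arrays were the highest, and the higher-dose arrays spanned the controls. The log2 change was 0.35 ± 0.20 at the lower dose (95% interval −0.17 to 0.87, adjusted p = 0.772) and 0.04 ± 0.20 at the higher dose (−0.47 to 0.56, adjusted p = 0.919). The latter changed sign with equal array medians (−0.04), with the gene span trend subtracted (−0.11) and without higher dose replicate 1 (−0.19).

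Csf1, the growth factor that keeps microglia alive through the receptor Csf1r, read 3679 and 4052 units in the controls, 3933 and 4646 at the lower dose and 3658 and 3483 at the higher dose. The lower-dose arrays overlapped the controls, and the higher-dose arrays lay slightly below both. The log2 change was 0.15 ± 0.16 at the lower dose (95% interval −0.27 to 0.57, adjusted p = 0.86) and −0.11 ± 0.16 at the higher dose (−0.53 to 0.31, adjusted p = 0.698). Between the doses it was −0.26 ± 0.16 (−0.68 to 0.16, adjusted p = 0.341).

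Ptgs2 ran the other way from Il18 and Il1b. Its probe read 486.2 and 548.4 units in the controls, 685.3 and 478 at the lower dose and 289.7 and 322.5 at the higher dose. The higher-dose arrays were below all 4 others, and the lower-dose arrays bracketed the controls. The means were 517 ± 44.0, 582 ± 147 and 306 ± 23.2 units (SD, n = 2). The log2 difference from control at the higher dose was −0.76 ± 0.22 (95% interval −1.33 to −0.19), a value 1.69-fold lower that did not pass (adjusted p = 0.0967). It was called when only probes above the median were tested (adjusted p = 0.00992), with log2(value + 16) (adjusted p = 0.0426) and with a trended prior (adjusted p = 0.0389). Against the lower dose it was −0.90 ± 0.22 (adjusted p = 0.0578), and −1.11 on values as deposited (adjusted p = 0.0355), where the median of all probes stood at −0.25. It was also called among probes above the median (adjusted p = 0.00327), with log2(value + 16) (adjusted p = 0.0194), with a trended prior (adjusted p = 0.0179) and with the gene span trend subtracted (−1.02, adjusted p = 0.0369). This difference from the lower dose was −0.65 without lower dose replicate 1 and −1.16 without lower dose replicate 2. For the lower dose against control it was 0.15 ± 0.22 (adjusted p = 0.895).

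**Figure D2:**
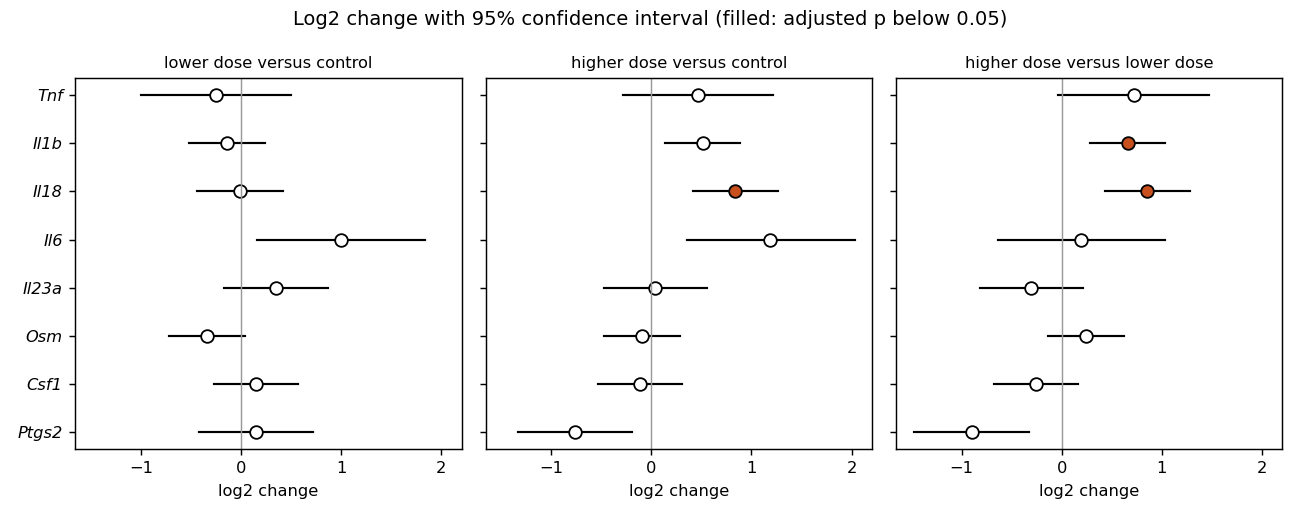
Log2 change (horizontal axis) of each gene in the 3 comparisons, with its 95% confidence interval from limma over 6 arrays. Filled points passed an adjusted p of 0.05: Il18 in both comparisons of the higher dose and Il1b between the doses. The intervals of Ptgs2 lie below 0 in the same 2 comparisons, without passing after adjustment.

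The order of the group means thus differed between members. For Il18 and Il1b the higher dose was on top and the interval of the lower dose against control included 0. For Ptgs2 the higher dose was at the bottom. For Il6 the control was at the bottom, and for Osm the lower dose was, with no step of either order past the threshold. Csf1 and Il23a had their highest mean at the lower dose, with intervals that include 0 in every comparison. Tnf had its highest mean at the higher dose, with intervals that also include 0 in every comparison.

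The pattern of each of the 7 members above the median probe was set against that of 10286 other named genes above the median probe, by the root mean square difference between log2 profiles over the 6 arrays, each centred on its own mean. Il18 lay nearest Dgcr6 and Memo1, at 0.047 and 0.054, when its own profile varied by 0.41. Il1b was nearest Adam6a (0.025) and Atg9a (0.030), and Ptgs2 nearest Tax1bp1 (0.065) and Sgsm3 (0.068). Tnf had the fewest near neighbours, 8 genes within 0.1, led by Mdp1 (0.076) and the C-type lectin gene Clec4n (0.087). Osm was nearest Wnt9b (0.025) and Arf3 (0.034), Csf1 nearest Uqcrc2 (0.038) and Ticrr (0.040), and Il23a nearest Ap3m2 (0.029) and a gene given as ABP1 (0.044). Such closeness over 6 arrays is a description: 73 genes lay within 0.1 of Il18, 167 within 0.1 of Il1b and 208 within 0.1 of Csf1.

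Genes that act with the members were taken from 5 lists of receptors and antagonists, processing enzymes, prostaglandin enzymes and receptors, RNA-binding proteins that act on cytokine messages, and other cytokines. Of 78 related genes measured, 7 rose and 4 fell at the higher dose against control, 14.1% against 10.6% of all probes. At the lower dose limma called 0 of 78, with 3 at an unadjusted p of 0.05. Comparing the doses, the higher one gave 9 higher and 2 lower, again 14.1%, beside 13.7% of all probes. These shares lie near the background.

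Of 16 receptors and antagonists, 1 fell at the higher dose and 0 rose (median log2 change 0.05, against −0.02 over all 17742 named genes). Of all named genes, 6.37% were called higher and 5.39% lower, the shares to set beside this list and those below. Il18rap, the accessory chain of the IL-18 receptor, read 204 and 263 deposited units in the controls, 314 and 302 at the lower dose and 136 and 123 at the higher dose. Both higher-dose arrays were below the other 4, and the fall was 1.86-fold (−0.90 ± 0.18, adjusted p = 0.0406). On values as deposited it did not pass (−0.84, adjusted p = 0.0664). The next by p, the IL-6 receptor gene Il6ra, stood at −0.51 ± 0.20 by its brighter probe (adjusted p = 0.169) and 0.14 by its other probe (adjusted p = 0.685). Il1rap, named after its values were seen, passed by its dimmest probe alone (1.47, adjusted p = 0.0379). Its brightest probe, which stood for the gene, gave −0.15 and the remaining one −0.18. Csf1r, the receptor for CSF1, stood at −0.48 ± 0.21 (adjusted p = 0.202) and the TNF receptor gene Tnfrsf1a at 0.05 ± 0.20 (adjusted p = 0.908). These last 2, and the genes named below as such, were chosen outside the rule for named genes, after their values were seen.

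Of 10 measured genes of precursor processing and release, 1 rose and 0 fell (median −0.17). Casp1, which encodes the caspase that cuts the IL-1β and IL-18 precursors, read 5789 and 5915 deposited units in the controls, 6466 and 6955 at the lower dose and 11846 and 10843 at the higher dose. The groups were apart at the higher dose, and the rise was 1.67-fold (0.74 ± 0.14, adjusted p = 0.0397). It was also called on values as deposited (0.95, adjusted p = 0.0368), with equal medians (0.88, adjusted p = 0.0301) and with the gene span trend subtracted (0.65, adjusted p = 0.0427). Adam10, a protease that sheds cell-surface proteins, stood at −0.49 ± 0.14 (adjusted p = 0.0919).

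In the prostaglandin pathway, 1 of 17 genes rose at the higher dose and 0 fell (median 0.06). Tbxas1, the thromboxane synthase that acts on the product of the cyclooxygenases, read 300 and 321 deposited units in the controls, 320 and 293 at the lower dose and 801 and 643 at the higher dose. It rose 2.38-fold (1.25 ± 0.19, adjusted p = 0.0255), also as deposited (1.21, adjusted p = 0.0319). Ptger4, a receptor for prostaglandin E2, had the next smallest p, and its 3 probes stood at −0.93 (adjusted p = 0.0513), −0.70 (adjusted p = 0.0649) and −0.58 (adjusted p = 0.139). All 3 were negative without passing, and the first passed with log2(value + 16) (adjusted p = 0.0156), among probes above the median (adjusted p = 0.00244) and with the gene span trend subtracted (adjusted p = 0.0349). Ptgs1, the constitutive cyclooxygenase, named outside the rule, stood at −0.38 ± 0.16 (adjusted p = 0.203).

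Of 12 genes for RNA-binding proteins and their regulators, 1 rose and 2 fell at the higher dose (median −0.16). Zfp36 encodes tristetraprolin, which binds AU-rich elements of Tnf and other messages and speeds their decay. It read 1646 and 2296 deposited units in the controls, 1392 and 1245 at the lower dose and 3797 and 4445 at the higher dose, a rise of 2.12-fold (1.08 ± 0.21, adjusted p = 0.0398). The lower-dose arrays were below both controls (−0.74 ± 0.21, adjusted p = 0.764), and the higher dose exceeded the lower 3.55-fold (1.83 ± 0.21, adjusted p = 0.018). Elavl1 encodes HuR, which stabilises many of the same messages, and its brighter probe fell 2.54-fold (−1.35 ± 0.22, adjusted p = 0.0293), while its dim probe stood at −0.47 (adjusted p = 0.294). Mapkapk2, a kinase that restrains tristetraprolin, was the other gene that fell (−0.77 ± 0.17, adjusted p = 0.0494), named after its value was seen. Hnrnpd, chosen the same way, was past the threshold by its dimmer probe (−1.08, adjusted p = 0.045) and not by its brighter one, which stood for the gene (−0.31, adjusted p = 0.36). On values as deposited Zfp36, Elavl1 and Mapkapk2 did not pass (adjusted p 0.0521 to 0.164), and with equal medians Elavl1 did (adjusted p = 0.0325) and the other 2 did not.

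Of 23 other cytokines measured, 4 rose and 1 fell at the higher dose, beside 6.37% higher and 5.39% lower of all named genes. In this list 19 had positive values (median 0.29, against −0.02 for all named genes). Of the 23, 15 lay above the median probe, and of all probes above the median 17% were called. Ebi3, a subunit shared by IL-27 and IL-35, read 298 and 335 deposited units in the controls, 301 and 306 at the lower dose and 753 and 658 at the higher dose, and rose 2.30-fold (1.2 ± 0.15, adjusted p = 0.0207). Csf2, which encodes GM-CSF, was called too (1.49 ± 0.23, adjusted p = 0.026), but on a dim signal of 8 and 12 units in the controls, 14 and 21 at the lower dose and 24 and 26 at the higher dose. On these arrays, 10% of probes read at or below 9 to 13 units. The others, named after their values were seen, were Il1a, the IL-1α gene (2.06-fold higher, 1.04 ± 0.18, adjusted p = 0.0327), the lymphotoxin gene Ltb (1.93-fold higher, 0.95 ± 0.16, adjusted p = 0.0318) and Csf3, the G-CSF gene (−0.75 ± 0.16, adjusted p = 0.0475). Ebi3 was the only one of these 5 called on values as deposited (1.16, adjusted p = 0.0308). Of the 11 related genes called against control, most lost the call in every fit without 1 array, and Tbxas1, Ebi3 and Ltb in some. Leaving out either lower-dose array gives the same test of this comparison and removes neither a control nor a higher-dose array. Fits without 1 array call fewer probes of any kind.

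**Figure D3:**
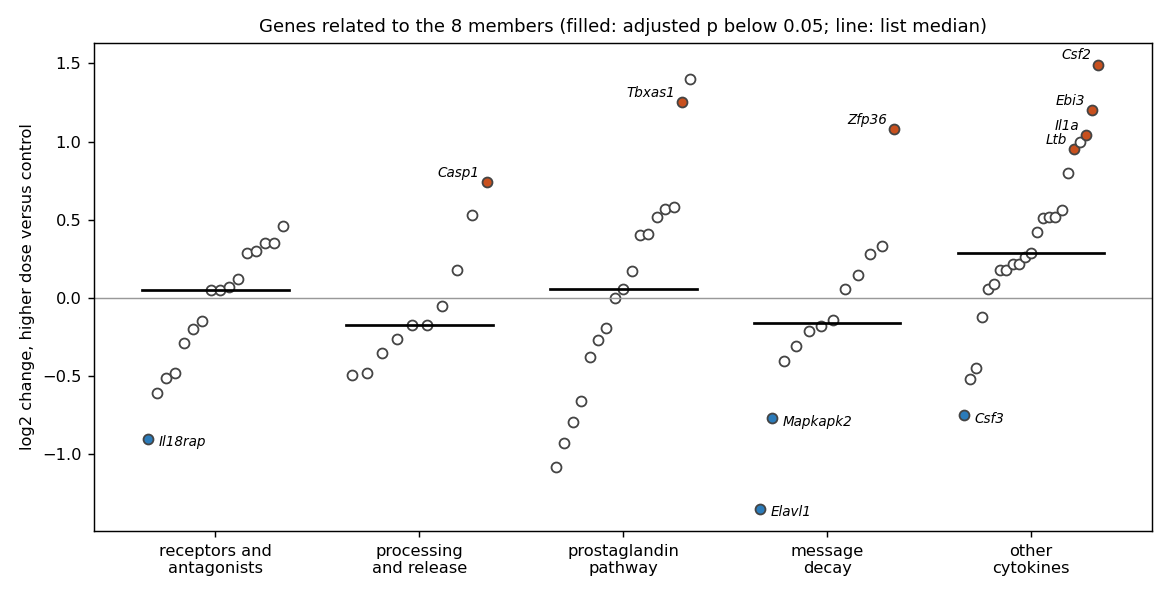
Log2 change at the higher dose against control (vertical axis) for the measured genes of 5 related lists, 1 point per gene by its brightest probe, with a line at each list's median. Filled points passed an adjusted p of 0.05, with 7 higher in orange and 4 lower in blue. The medians lie between −0.17 and 0.29.

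Between the doses, the same call rule gave Il18rap (−1.06 ± 0.18, adjusted p = 0.0263), Casp1 (0.69 ± 0.14, adjusted p = 0.0405), Tbxas1 (1.5 ± 0.19, adjusted p = 0.019) and Elavl1 (−1.4 ± 0.22, adjusted p = 0.025), beside Zfp36 above. Il1a was 2.25-fold and Ebi3 2.80-fold higher at the higher dose than at the lower (adjusted p = 0.0243 and 0.018). Csf2 and Ltb were higher too (adjusted p = 0.0398 and 0.0213). Also called, and named after their values were seen, were the chemokine gene Ccl4 (1.09 ± 0.24, adjusted p = 0.0466) and Ptges2, a prostaglandin E synthase (0.79 ± 0.18, adjusted p = 0.0462). Against control these last 2 stood at 1.00 (adjusted p = 0.0624) and 0.40 (adjusted p = 0.211). Each of these 11 calls between the doses was lost in all 6 fits without 1 array. Those fits have 2 residual degrees of freedom and call few probes of any kind between the doses, so the losses are not particular to these genes.

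Microglial markers did not move as a group at the higher dose. Of the 10 measured, 2 rose and 0 fell against control, beside 10.6% of all probes. Of these markers, 9 lay above the median probe, and of all probes above the median 17% were called. Of the 10 values 5 were positive, with a median log2 change of 0.05. Those that rose were Aif1, which encodes the cytoskeletal protein Iba1 (4.19-fold, 2.07 ± 0.16, adjusted p = 0.0167), and the integrin gene Itgam (1.71-fold, 0.77 ± 0.16, adjusted p = 0.0435). Leaving out 1 array ended the call of Itgam in every fit and that of Aif1 in some. Leaving out either lower-dose array gives the same test of this comparison, with all control and higher-dose arrays kept. Values below 0 that did not pass were those of Adgre1 and Tmem119 (both −0.49), Csf1r (−0.48), Ptprc (−0.14) and Cx3cr1 (−0.13). The summed normalized intensity of the list was 74990 to 77410 units in the controls, 72720 to 80850 at the lower dose and 99030 to 112100 at the higher dose. Bright probes weigh most in that sum, and those of Cd68 and Trem2 read highest at the higher dose. Neither was called against control in the main fit. Cd68 went from 29446 and 33963 deposited units in the controls to 65484 and 49989 (0.64 ± 0.22, adjusted p = 0.13). The chemokine gene Ccl3 also read 65484 on higher dose replicate 1, so that value may be a ceiling. Trem2, a lipid receptor of microglia, went from 7492 and 11915 to 22542 and 29284 (1.14 ± 0.26, adjusted p = 0.0567), and was called between the doses (1.21, adjusted p = 0.044).

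Markers of other cell types were also read, and none of all 36 measured lay at or under the floor of 1 unit on all arrays. The 5 lymphocyte markers measured summed to 814.5 to 858.6 units in the controls, 652.1 to 702 at the lower dose and 1061 to 1091 at the higher dose, with 2 of 5 above the median probe. Against control 0 of 5 were called, beside 10.6% of all probes. Between the doses 1 was, beside 13.7% of all probes, namely the CD3 chain gene Cd3e of T cells (0.72, adjusted p = 0.0484). The 5 endothelial markers summed to 2679 to 2756 units in the controls, 3140 to 3200 at the lower dose and 1971 to 2305 at the higher dose. Against control at the higher dose, 3 of the 5 had positive changes (median log2 change 0.11), so the sum does not show a fall of the whole list. Between the doses 1 of the 5 was positive (median −0.29). Among them Kdr, a VEGF receptor gene, was lower at the higher than at the lower dose (−0.70, adjusted p = 0.0473). That call held on values as deposited (−0.95, adjusted p = 0.033) and was lost with the gene span trend subtracted (−0.58, adjusted p = 0.06). Kdr was not called against control (−0.48, adjusted p = 0.117). In bulk RNA a change in the share of cells that express a gene and a change per cell cannot be told apart. The part of these marker values in those of the members was not tested.

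**Figure D4:**
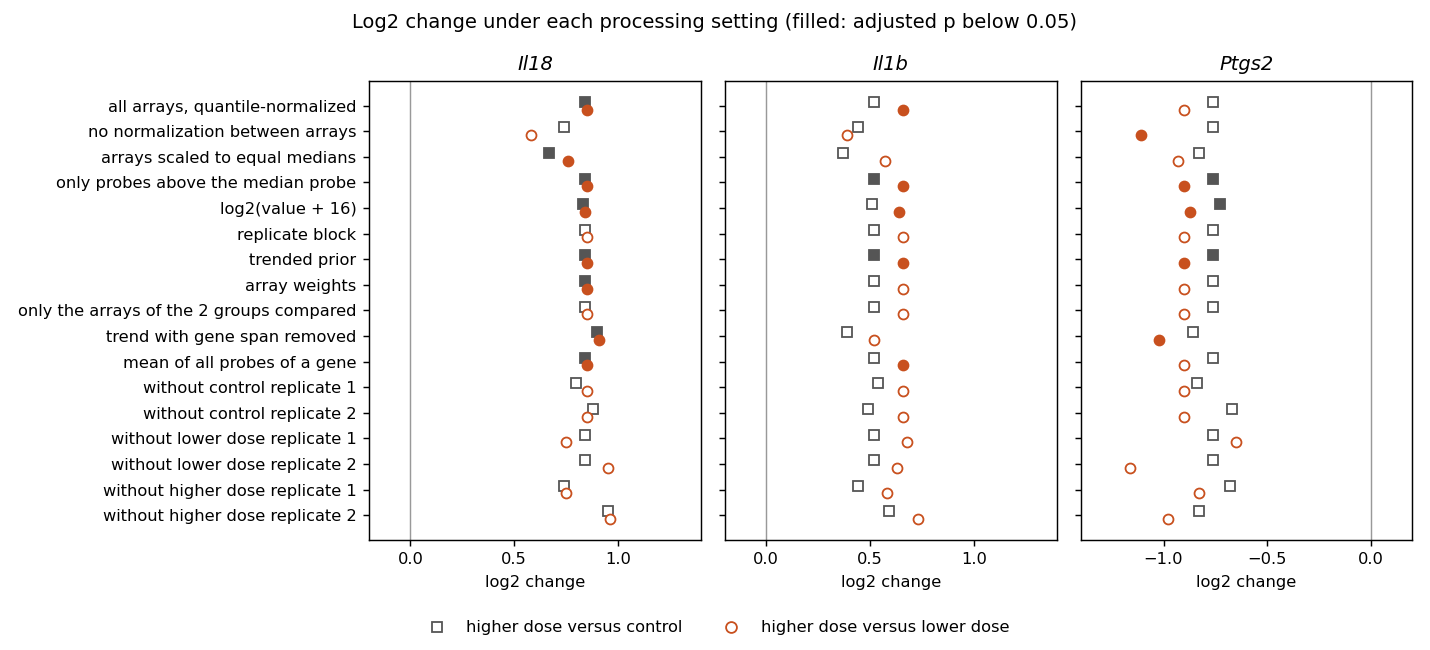
Log2 change (horizontal axis) of Il18, Il1b and Ptgs2 at the higher dose against control (squares) and against the lower dose (circles), under each processing setting (rows). Filled symbols passed an adjusted p of 0.05. All values of Il18 and Il1b lie above 0 and all those of Ptgs2 below 0, while no fit without 1 array calls any of the 3.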

How the data were processed

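The authors deposited unlogged intensity values (whole numbers, a few of them negative) for Cy5-labelled cDNA on Phalanx mouse OneArray, per the labels. RMA is named in the submitters' processing notes, but the deposited values are neither logged nor of equal distribution, so the arrays were treated as still to be normalized. How background was handled is not stated in these sources, and detection flags were not used here. Arrays were quantile-normalized, values under 1 were set to 1, and log2 was taken. All 6 arrays were fitted in limma 3.58.1 (R 4.3.3), with a mean for each group, 3 residual degrees of freedom and two-sided p-values. The fit was tested on simulated data. Symbols came from an old platform annotation that leaves 6046 probes unnamed, updated through a RefSeq table of GRCm38.p6. The brightest probe stood for a gene. The related genes named were the 2 of smallest p at the higher dose in each list. Members and lists were chosen with earlier results of these data known. Alternatives covered normalization, floor, filter, prior, weights, gene span, samples and threshold. Figures used matplotlib 3.10.9.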

Additional observations from a re-analysis of the deposited data

Results flagged for a closer look

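The effect of adenine on Il18 and Il1b differed between the doses by the limma test of the difference itself. Il18 was higher at the higher than at the lower dose by 0.85 on the log2 scale (adjusted p = 0.0361), and Il1b by 0.66 (adjusted p = 0.0477), with both arrays of the higher dose above both of the lower in each case. Of all probes, 13.7% were called in that comparison. Both calls were lost on values as deposited, at 0.58 (adjusted p = 0.132) and 0.39 (adjusted p = 0.201). Leaving out any 1 of the 6 arrays ended both calls too, with changes of 0.75 to 0.96 for Il18 and 0.58 to 0.73 for Il1b. Those fits have 2 residual degrees of freedom and call few probes of any kind between the doses. The lone array of a group is assumed to vary like the other groups.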

How the results depend on the processing

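Over 24 member values (8 genes in 3 comparisons) and 381 recomputed ones, 328 kept direction and side of the threshold, 30 lost a call, 13 gained one and 10 changed sign. No called value changed sign. The recomputed values are not all separate. In each comparison, leaving out an array of the group not compared gives the same test as using only the arrays compared. For the changes of side below, the cause was not tested. At the higher dose against control, 2803 probes became 5524 with only probes above the median, 4762 with log2(value + 16), 5000 with a trended prior, 1584 with only the arrays compared and 5 to 1584 without 1 array. The 1 member called became 3, 3, 4, 0 and 0 in the same order, 0 with no normalization and 4 at an adjusted p of 0.1. At the lower dose, the 3 probes became 1 above the median, 0 with equal medians, array weights or only the arrays compared, and 0 to 9 without 1 array, and the member count was 0 throughout. Between the doses, 3629 probes became 6163, 5662, 5762 and 7 under those first 4 settings and 6 to 25 without 1 array. The 2 members called became 4 above the median, 1 with equal medians or array weights (Il18), 1 with no normalization (Ptgs2, lower, with neither Il18 nor Il1b called), and 0 with only the arrays compared or without any 1 array. Without normalization, 1127 probes were higher and 2965 lower between the doses, against 1792 and 1837.

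Sign changed for Il23a at the higher dose (−0.04 with equal medians, −0.11 without the gene span trend, −0.19 to 0.27 without 1 array), and at the lower dose, as deposited, for Il18 (0.16) and Il1b (0.05). Without 1 array, the ranges that crossed 0 were −0.11 to 0.09 for Il18, −0.11 to 0.41 for Ptgs2 and −0.62 to 0.12 for Tnf at the lower dose, and −0.01 to 0.39 for Il6 between the doses.

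Replicate numbers in the titles are not said to mark a shared batch, and the main fit did not pair the arrays. Deviations of same-numbered arrays correlated at 0.0326 (control and lower dose), 0.313 (control and higher dose) and −0.226 (lower and higher dose). Groups of so few arrays are too small for these values to decide whether same-numbered arrays belong together. With a replicate block, 11, 0 and 1395 probes and 0 members were called at the higher dose, the lower dose and between the doses (Il18 adjusted p = 0.0795 and 0.069 at the higher dose and between the doses).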
